A study of Mus musculus with 12 samples.

Results

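Semaphorins, their plexin and neuropilin receptors, and neuritin were followed as one group of 10 genes in donor CD4+ T cells taken from mice early in graft-versus-host disease. The group held 5 semaphorins (Sema4a, Sema4b, Sema4c, Sema4d and Sema7a), 4 receptors (Plxnc1, Plxnd1, Plxnb2 and Nrp1) and neuritin (Nrn1), out of 19938 genes measured. It was put together because Sema4a, Plxnc1 and Nrn1 were already known to be lower on these arrays after treatment. The comparisons of the 10 genes with vehicle are therefore descriptions and carry no test.

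Semaphorins are secreted or membrane-bound proteins, first known as guidance cues for growing axons, that bind plexins on neighbouring cells. Plexins carry a GTPase-activating domain in their cytoplasmic part and act on small GTPases of the Ras and Rap families, on integrins and on the cytoskeleton, and neuropilins serve them as co-receptors. In the immune system Sema4a and Sema4d take part in contacts of T cells with dendritic cells and B cells, Nrp1 marks regulatory T cells that arise in the mouse thymus, and neuritin, a small protein held to the membrane by a lipid anchor, is known from neurons and from anergic and regulatory T cells.

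The donor cells were splenocytes of C57Bl/6 mice labelled with CFSE, a dye that is diluted at each division, and injected into B6D2F1 hosts, which also carry histocompatibility antigens foreign to the donor cells. Hosts of the TCDD group were given 15 µg/kg of 2,3,7,8-tetrachlorodibenzo-p-dioxin, a ligand of the aryl hydrocarbon receptor (AhR), on day 0 alone. Hosts of the other 2 groups were given vehicle, or 2 mg/kg of Cl-BBQ, another AhR ligand, on days 0 and 1. All hosts were killed on day 2, 48 hr after transfer, and donor CD4+ cells that had divided at least 2 times were purified with beads and sorted from spleen and lymph node, so every group, vehicle included, consists of donor cells that had divided in a foreign host. Each group held 4 mice aged 10 to 12 weeks, with 1 array per mouse, and both donor cells and host tissues were exposed to the ligand.

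Values are log2 intensities after robust multi-array averaging, 1 probe set per gene, and a difference of 1 is a doubling. Array medians lay between 7.11 and 7.24. Cyp1b1, an AhR target that checks the treatment, was at 6.25 to 6.57 with vehicle and 9.67 to 9.92 with TCDD. With Cl-BBQ it was at 8.24, 7.90, 5.93 and 7.89 in replicates 1 to 4, so Cl-BBQ replicate 3 lay below all vehicle arrays for this gene. The log2 difference of Cyp1b1 from vehicle was 3.49 with TCDD (adjusted p = 3.6e-05 in limma). With Cl-BBQ it was 1.13 and did not pass (adjusted p = 0.298). Cyp1b1 passed between TCDD and Cl-BBQ (adjusted p = 0.0356 in limma). The Cl-BBQ means given here keep replicate 3. The 11 measured CD4 T cell markers were bright in every group (mean log2 level 12.19 to 12.43 over the 12 arrays) and none passed the test in any comparison, with 2, 1 and 0 of them at an unadjusted p under 0.05 in limma.

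Among the ligands, Sema4a, which is made by dendritic cells, B cells and activated T cells, differed most between treated and vehicle arrays. Its log2 levels were 9.08, 9.16, 8.80 and 8.96 on the vehicle arrays, 7.86, 8.08, 7.83 and 8.24 on the TCDD arrays, and 7.98, 8.27, 8.45 and 8.50 on the Cl-BBQ arrays. Every treated array was below every vehicle array, and the TCDD and Cl-BBQ arrays overlapped each other. The group means were 8.997 ± 0.16 with vehicle, 8.001 ± 0.19 with TCDD and 8.30 ± 0.24 with Cl-BBQ (SD, n = 4). The log2 difference from vehicle was -0.996 with TCDD (SE 0.12, 95% interval -1.25 to -0.74), which is 1.99-fold lower and the 4th lowest difference of all genes. With Cl-BBQ it was -0.70 (95% interval -0.95 to -0.44), 1.62-fold lower and the 8th lowest. In a bulk sample, fewer cells that make a transcript and less of it per cell cannot be told apart, and this holds for every difference given here.

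Sema4d (CD100), a semaphorin that T cells carry in abundance and that binds plexins of the B class and CD72, lay on the other side of vehicle. Its log2 levels were 10.94, 10.87, 10.76 and 10.78 with vehicle, 10.90, 11.16, 11.21 and 11.16 with TCDD, and 10.88, 11.06, 11.03 and 10.98 with Cl-BBQ. In each treated group 3 of 4 arrays were above all vehicle arrays and replicate 1 was within their range. The log2 difference was 0.27 with TCDD (SE 0.07, 95% interval 0.13 to 0.42, 1.21-fold) and 0.15 with Cl-BBQ (95% interval 0.00 to 0.30, 1.11-fold). A second probe set of Sema4d, with a lower mean, gave 0.04 and 0.06, so the size of the difference depended on the probe set.

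The remaining ligands overlapped with vehicle in both treated groups. Sema4b had mean log2 levels of 8.47 ± 0.13 with vehicle, 8.45 ± 0.16 with TCDD and 8.42 ± 0.13 with Cl-BBQ (SD, n = 4). Sema4c, a ligand of Plxnb2, was at 6.54 ± 0.08, 6.61 ± 0.06 and 6.52 ± 0.07. Sema7a, which is anchored by a lipid and binds Plxnc1 as well as integrins that contain the Itgb1 chain, was at 8.74 ± 0.17, 8.79 ± 0.05 and 8.85 ± 0.11. The 95% intervals of all 6 differences of these genes from vehicle contained 0, with bounds between -0.24 (Sema4b with Cl-BBQ) and 0.30 (Sema7a with Cl-BBQ).

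Of the receptors, Plxnc1, which binds Sema7a, was lower in both treated groups. Its log2 levels were 9.31, 9.55, 9.11 and 9.75 with vehicle, 8.35, 8.79, 8.49 and 8.74 with TCDD, and 8.43, 8.98, 9.10 and 9.11 with Cl-BBQ. No treated array reached the lowest vehicle array, although Cl-BBQ replicates 3 and 4 came close to it. The means were 9.43 ± 0.28, 8.59 ± 0.21 and 8.90 ± 0.32 (SD, n = 4). The log2 difference was -0.84 with TCDD (SE 0.16, 95% interval -1.17 to -0.50, 1.79-fold lower, the 12th lowest of all genes) and -0.52 with Cl-BBQ (95% interval -0.86 to -0.19, 1.44-fold lower, the 27th lowest).

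Nrp1, a co-receptor for secreted semaphorins that also binds Sema4a on regulatory T cells, spread widely among the vehicle mice. It was at 8.04, 8.50, 7.90 and 8.74 with vehicle, 7.61, 7.80, 7.97 and 7.88 with TCDD, and 7.45, 7.85, 7.74 and 7.60 with Cl-BBQ (log2 levels). The Cl-BBQ arrays were all below the vehicle arrays, and TCDD replicate 3 was above the lowest vehicle array. The log2 difference was -0.48 with TCDD (SE 0.15, 95% interval -0.80 to -0.16, 1.40-fold lower) and -0.64 with Cl-BBQ (95% interval -0.96 to -0.32, 1.56-fold lower). Nrp1 was thus the one of the 4 lower genes whose mean was lower with Cl-BBQ (7.66 ± 0.18) than with TCDD (7.81 ± 0.16).

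The other plexins differed little. Plxnd1, a receptor for secreted semaphorins and for Sema4a, had mean log2 levels of 7.57 ± 0.10 with vehicle, 7.43 ± 0.12 with TCDD and 7.43 ± 0.08 with Cl-BBQ, and the groups overlapped. Plxnb2, a receptor for Sema4c and Sema4d, was at 6.38 ± 0.07, 6.41 ± 0.12 and 6.42 ± 0.14 (SD, n = 4). Plxnb2 and Sema4c lay below the lowest array median (7.11) on every array. Their signal may be close to background, so a lack of difference in them says little.

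Neuritin was lower with both ligands. The log2 levels of Nrn1 were 10.67, 10.97, 10.51 and 10.76 with vehicle, 9.56, 10.16, 9.59 and 10.14 with TCDD, and 9.51, 10.33, 10.12 and 10.39 with Cl-BBQ. All treated arrays were below all vehicle arrays, and within each treated group the arrays spread more than within vehicle (SD 0.33 with TCDD, 0.40 with Cl-BBQ and 0.19 with vehicle). The means were 10.73, 9.86 and 10.09. The log2 difference was -0.86 with TCDD (SE 0.18, 95% interval -1.24 to -0.48, 1.82-fold lower, the 11th lowest of all genes) and -0.64 with Cl-BBQ (95% interval -1.02 to -0.26, 1.56-fold lower, the 12th lowest).

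**Figure D1:**
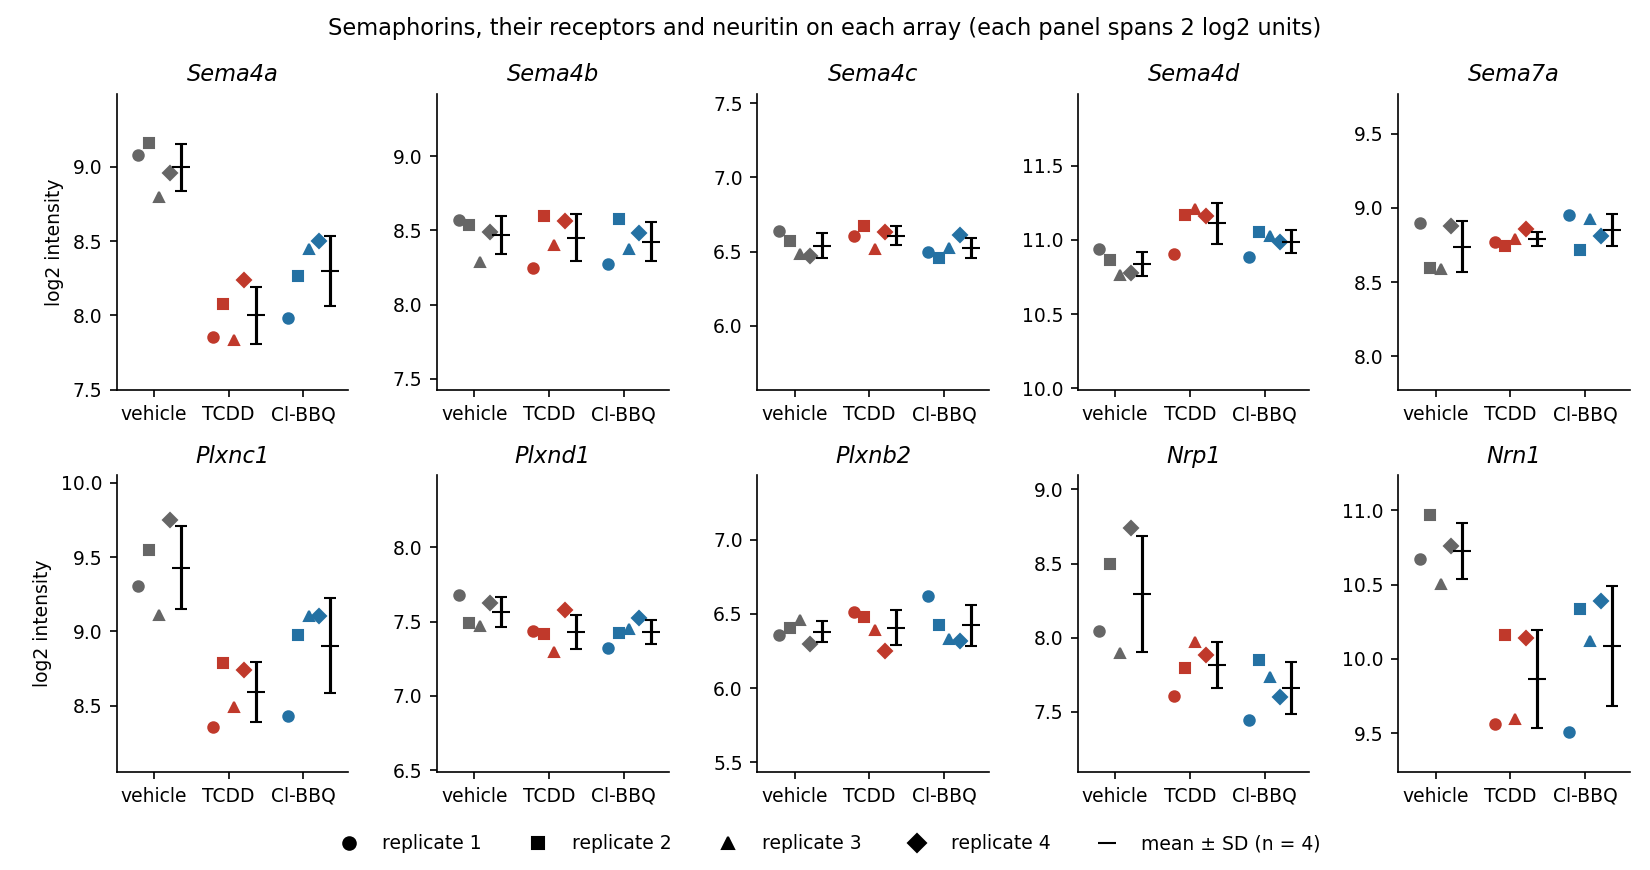
Log2 intensity (vertical axis, every panel spanning 2 log2 units) of the 10 genes on each of 12 arrays by group, with the marker shape giving the replicate number and black bars the mean and SD of 4 arrays. Sema4a, Plxnc1 and Nrn1 lie below vehicle on all TCDD and Cl-BBQ arrays, Nrp1 on all Cl-BBQ arrays, and the 6 remaining genes overlap.

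Counted over the group, 3 of the 10 genes (Sema4a, Plxnc1 and Nrn1) had an adjusted p under 0.05 with TCDD in limma with Benjamini-Hochberg adjustment, where 1.24% of all genes had, and the same 3 had arrays that did not overlap, where 5.8% of all genes had. With Cl-BBQ, 1 of 10 passed (Sema4a), where 0.196% of all genes did, and 4 of 10 had arrays that did not overlap (Sema4a, Plxnc1, Nrp1 and Nrn1), where 3.85% of all genes had. Because the group was chosen on these contrasts, nothing is read from these counts. Of the 7 genes not named in the choice, 0 passed in either comparison and 2 in each had an unadjusted p under 0.05. Of all 19938 genes, 1733 with TCDD and 1577 with Cl-BBQ had such a p in limma. The median log2 difference of those 7 was 0.03 with TCDD and -0.02 with Cl-BBQ, beside 0.00 and 0.01 over all genes. Leaving out TCDD replicate 3 reduced the TCDD count from 3 to 1. The Cl-BBQ count became 0 when Cl-BBQ replicate 2 or vehicle replicate 1, 2 or 4 was left out, and 4 (Sema4a, Plxnc1, Nrp1 and Nrn1) with the replicate number as a block.

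TCDD and Cl-BBQ were then compared directly. Their doses and days of dosing differed, so the values stand side by side and do not rank the compounds. Sema4a, Plxnc1 and Nrn1 were chosen because they were lower on these same treated arrays. That choice also bears on this contrast, so the values of these 3 genes are descriptions here too. None of the 10 genes passed (adjusted p = 1.00 for each in limma), where 0.015% of all genes did, and none had arrays that did not overlap, where 2.04% of all genes had. Sema4a alone had an unadjusted p under 0.05, with a log2 difference, TCDD minus Cl-BBQ, of -0.30 (95% interval -0.55 to -0.04). It was -0.31 for Plxnc1 (95% interval -0.65 to 0.02), -0.22 for Nrn1 (-0.60 to 0.16), 0.15 for Nrp1 (-0.17 to 0.48) and 0.12 for Sema4d (-0.02 to 0.27). The remaining 5 genes lay between -0.06 and 0.08. These intervals leave room for differences of up to 0.65 log2 units and do not show that the ligands act alike. With the replicate number as a block 5 genes passed in place of 3, none of them among the 10.

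**Figure D2:**
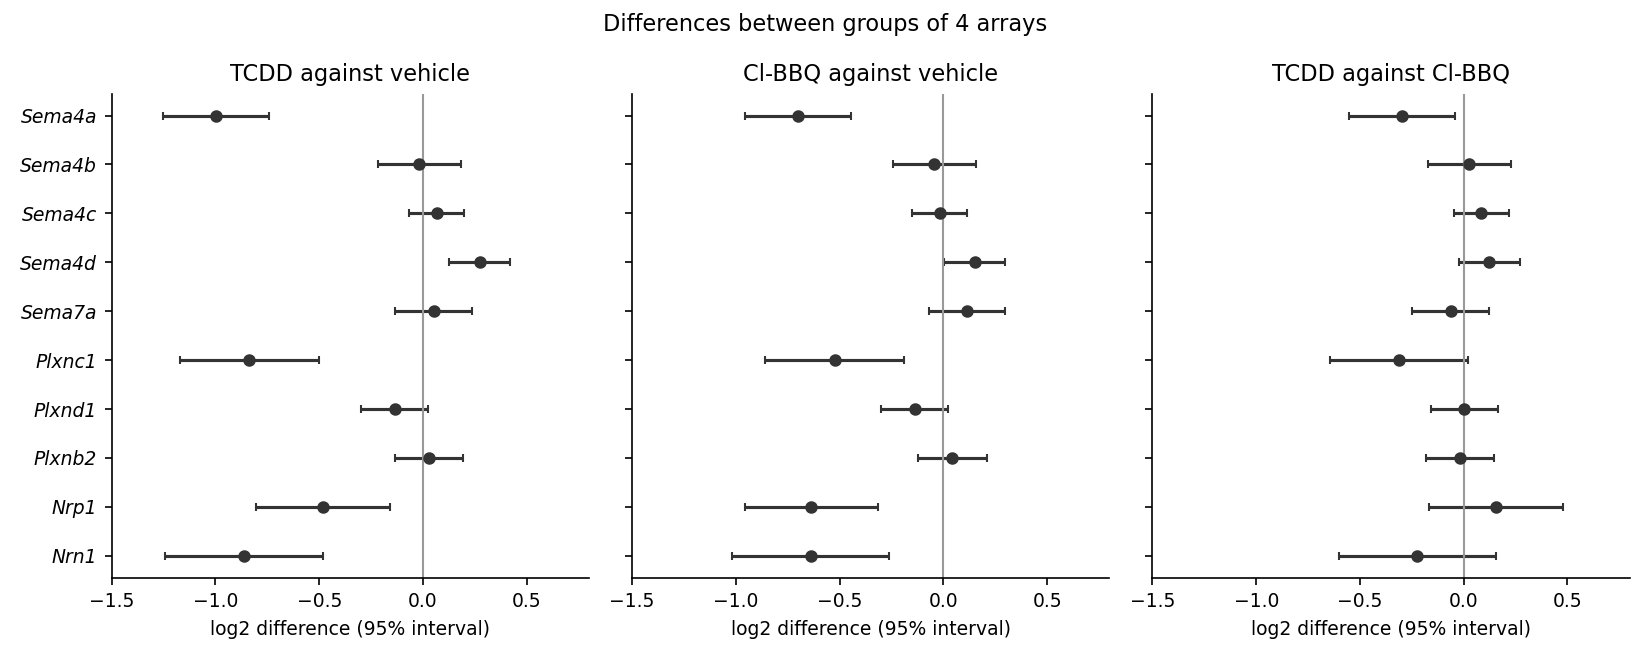
Log2 difference between groups of 4 arrays (points) with its 95% interval (bars) for each gene, in 3 panels: TCDD minus vehicle, Cl-BBQ minus vehicle, and TCDD minus Cl-BBQ. The lowest points are those of Sema4a in the first and second panel (-0.996 and -0.70), and in the third all points lie between -0.31 and 0.15.

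Other genes of the pathway were taken from 4 lists drawn up by family or function, 74 measured genes in all, without the 10 above. Earlier results of these data were known when the lists were drawn up, so their adjusted p values are not an independent test. With TCDD 3 of them rose (Rras2, Rap1b and Ctla4), 1 fell (Itgb1) and 70 did not pass, where 1.24% of all genes passed. The median log2 difference was 0.04 beside 0.00 over all genes. With Cl-BBQ 1 rose (Rras2), 1 fell (Itgb1) and 72 did not pass, where 0.196% of all genes passed, and the median was 0.02 beside 0.01 over all genes. Between TCDD and Cl-BBQ 0 of 74 passed in limma, and 4 had an unadjusted p under 0.05, beside 596 of all 19938 genes.

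None of the 15 other semaphorins passed in either comparison with vehicle, with 0 and 1 of them at an unadjusted p under 0.05 in limma. Their log2 differences ran from -0.04 to 0.13 with TCDD and from -0.02 to 0.16 with Cl-BBQ. The 4 with the highest mean were Sema3f (0.04 and 0.10 with TCDD and Cl-BBQ), Sema5b (0.03 and 0.03), Sema6b (0.03 and 0.01) and Sema3g (0.05 and 0.09). Only Sema3f had a mean log2 level with vehicle (7.76) above the highest array median (7.24). The vehicle means of the others ran from 5.57 (Sema3c) to 7.23 (Sema5b). The signal of many of them may be close to background, so a lack of difference in them says little.

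Of the 11 other receptors and binding partners, Itgb1, the integrin chain through which Sema7a can act, fell in both treated groups. Its log2 levels were 10.52, 10.64, 10.34 and 10.67 with vehicle, 9.85, 9.84, 9.74 and 9.85 with TCDD, and 9.89, 9.92, 10.10 and 9.59 with Cl-BBQ. All treated arrays were below all vehicle arrays. The log2 difference was -0.72 with TCDD (95% interval -0.93 to -0.51, 1.65-fold lower, adjusted p = 0.000667 in limma) and -0.67 with Cl-BBQ (95% interval -0.87 to -0.46, 1.59-fold lower, adjusted p = 0.0135). Plxnb1, a receptor for Sema4d, differed by -0.01 and 0.01, Plxna1, a receptor for secreted and membrane-bound semaphorins, by -0.04 and 0.00, and none of these 4 values passed. Cd72, the B cell receptor for Sema4d, was at log2 differences of -0.21 and -0.35 (adjusted p = 0.673 and 0.402 in limma). Nrp2, the other neuropilin, had mean log2 levels of 6.84 with vehicle, 6.97 with TCDD and 6.99 with Cl-BBQ and did not pass. Its treated arrays were all above its vehicle arrays, the other side from Nrp1. Arrays did not overlap for 3 of the 11 with TCDD and 2 with Cl-BBQ, where 5.8% and 3.85% of all genes had this. At an unadjusted p under 0.05 in limma there were 2 and 4 of the 11, beside 1733 and 1577 of all 19938 genes.

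Among 31 genes of plexin signalling, Rras2, a small GTPase of the R-Ras family on which plexins act, rose with both ligands. It was at 11.05, 10.96, 10.97 and 10.72 with vehicle, 11.57, 11.63, 11.69 and 11.56 with TCDD, and 11.64, 11.45, 11.33 and 11.32 with Cl-BBQ (log2 levels). All treated arrays were above all vehicle arrays. The log2 difference was 0.68 with TCDD (95% interval 0.52 to 0.84, 1.61-fold, adjusted p = 0.000161 in limma) and 0.51 with Cl-BBQ (95% interval 0.35 to 0.67, 1.42-fold, adjusted p = 0.0146). Rap1b, a GTPase that switches on integrins, rose by 0.13 with TCDD (adjusted p = 0.0309 in limma) and lost this call in 8 of 16 alternatives. The list's other genes with a high mean, Cfl1, which severs actin filaments, Rhoa and Rap1a differed by 0.05, 0.01 and 0.07 with TCDD and did not pass. The calls of Itgb1 and Rras2 with Cl-BBQ were lost when Cl-BBQ replicate 2 or vehicle replicate 4 was left out, and in a fit of these 2 groups alone. Their calls with TCDD held in all 16 alternatives.

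Of 17 genes known from regulatory and anergic T cells, Ctla4, an inhibitory receptor, rose with TCDD by 0.34 log2 units (SE 0.05, 1.26-fold, adjusted p = 0.00192 in limma). The other 16 did not pass with TCDD, where 1.24% of all genes passed. At an unadjusted p under 0.05 in limma there were 3 of the 17, beside 1733 of all 19938 genes. Arrays did not overlap for 3 of the 17 with TCDD and 0 with Cl-BBQ, where 5.8% and 3.85% of all genes had this. With vehicle, TCDD and Cl-BBQ, mean log2 levels were 8.05, 8.11 and 7.90 for Foxp3 and 10.24, 10.06 and 10.05 for Ikzf2. The differences with TCDD ran from -0.39 (Izumo1r) to 0.49 (Il2ra), and neither of these 2 genes passed. With Cl-BBQ none of the 17 passed in limma, where 0.196% of all genes did. In that comparison 1 of them had an unadjusted p under 0.05, beside 1577 of all 19938 genes. The median of the list was -0.02 with TCDD and 0.02 with Cl-BBQ. Dgka, a kinase that lowers diacylglycerol, was at 0.05 and 0.03, Cblb, a ubiquitin ligase that restrains T cell activation, at -0.02 and 0.02, and Egr2, a transcription factor of anergic cells, at -0.08 and -0.08, none of them past the threshold.

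**Figure D3:**
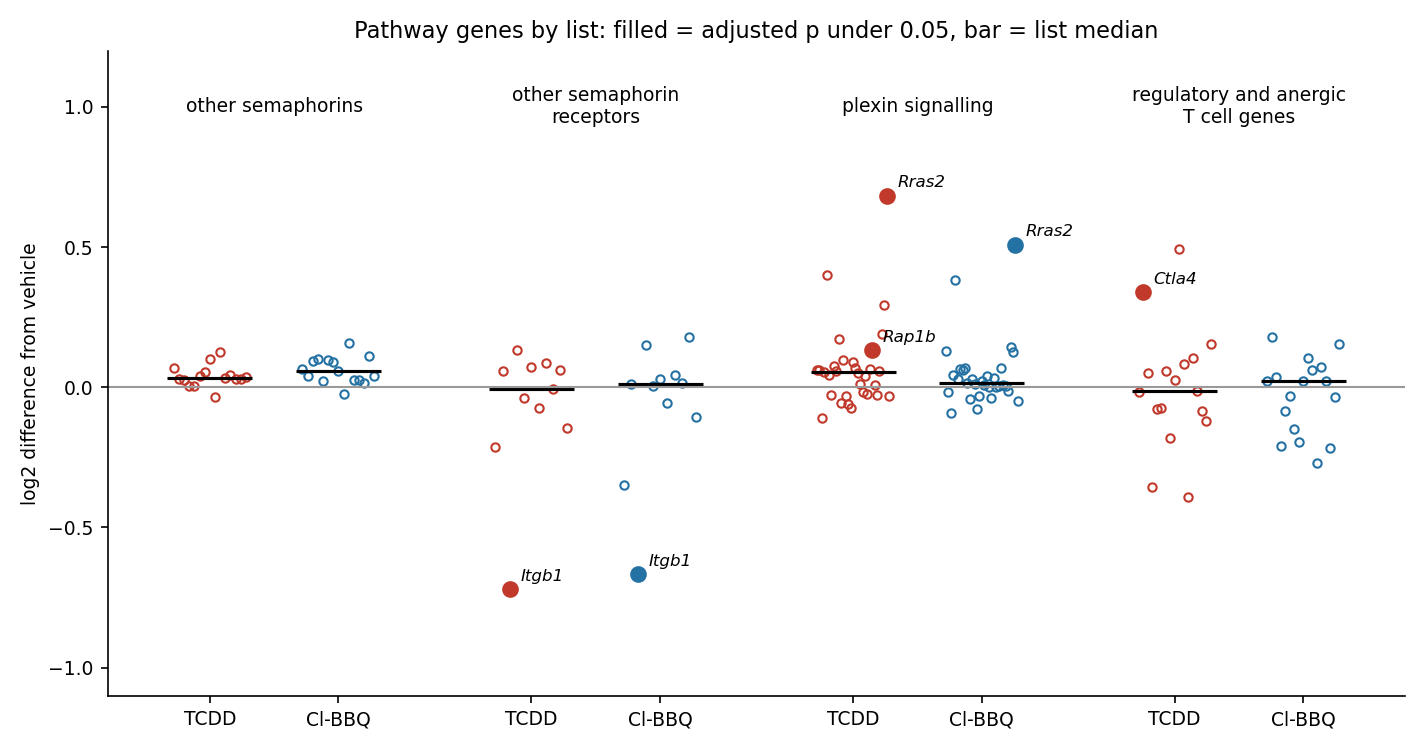
Log2 difference from vehicle of each measured gene of the 4 pathway lists (points, 1 per gene) with TCDD and with Cl-BBQ, filled where the adjusted p was under 0.05, with a bar at the list's median. Most genes sit near 0, and the genes far from it that passed with both ligands are Itgb1 (-0.72 and -0.67) and Rras2 (0.68 and 0.51).

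Markers of other cells were read beside these results, because Sema4a is also made by B cells and dendritic cells and Cd72 by B cells. Of 10 measured B cell markers, Cd22 and Bank1 fell with TCDD, where 1.24% of all genes passed, and none passed with Cl-BBQ, where 0.196% of all genes did. At an unadjusted p under 0.05 in limma there were 3 with TCDD (Cd22, Bank1 and, in the other direction, Cd79b) and 2 with Cl-BBQ. Of all 19938 genes, 1733 and 1577 had such a p. Cd22 was at 7.91, 8.26, 7.59 and 8.52 with vehicle, 7.06, 7.30, 7.13 and 6.96 with TCDD, and 7.32, 7.31, 7.77 and 7.38 with Cl-BBQ (log2 levels). Its log2 difference was -0.95 with TCDD (adjusted p = 0.00364 in limma) and -0.62 with Cl-BBQ (adjusted p = 0.168). That of Bank1 was -0.48 (adjusted p = 0.0392) and -0.41 (adjusted p = 0.202), the first lost in 8 of 16 alternatives. The defining markers Cd79a, Cd79b, Ms4a1 and Pax5 were at log2 differences of -0.15, 0.23, -0.12 and 0.11 with TCDD and 0.01, 0.10, 0.05 and -0.05 with Cl-BBQ, none of which passed. The summed level of the 10 markers, as log2, was 10.07 to 10.37 with vehicle, 9.96 to 10.09 with TCDD and 10.00 to 10.11 with Cl-BBQ. The part of B cells in the lower Sema4a, Plxnc1, Nrp1 and Nrn1 was not tested.

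None of the 18 myeloid and dendritic cell markers passed in limma in either comparison with vehicle, 2 in each having an unadjusted p under 0.05. Their summed level, as log2, was 11.42 to 11.66 with vehicle, 11.63 to 11.69 with TCDD and 11.61 to 11.66 with Cl-BBQ. Bst2, which many activated cells also make, contributed most to this sum, with a mean log2 level of 10.31 with vehicle, 10.58 with TCDD and 10.52 with Cl-BBQ. The part of dendritic and myeloid cells in the lower Sema4a was not tested. Neither of the 2 CD8 markers passed, with 0 at an unadjusted p under 0.05 in limma, and Cd8a reached 8.47 on 1 vehicle array where its vehicle median was 7.01. Vehicle replicate 2 had the highest mean level of the CD8 (9.18), B cell (6.71) and NK cell (6.84) markers of all 12 arrays. It was the highest vehicle array for Sema4a (9.16) and Nrn1 (10.97), and replicate 4 was for Plxnc1 (9.75) and Nrp1 (8.74). The part of these cells in the vehicle levels was not tested.

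**Figure D4:**
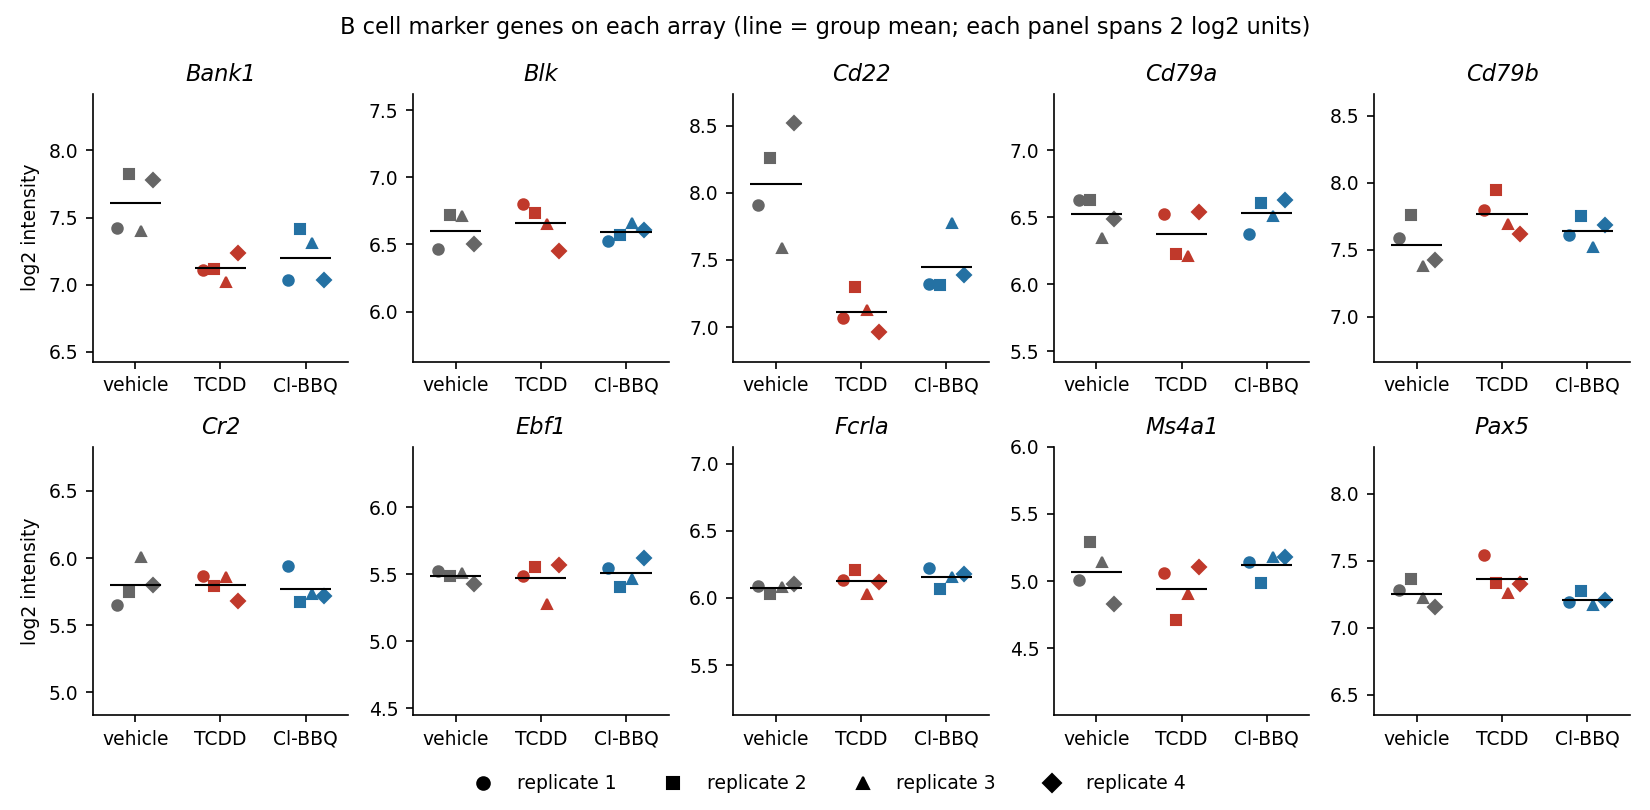
Log2 intensity (vertical axis, every panel spanning 2 log2 units) of the 10 measured B cell markers on each of 12 arrays, by group, with the marker shape giving the replicate number and a line at the group mean. Cd22 and Bank1 are lower on the TCDD arrays (log2 differences -0.95 and -0.48), while Cd79a, Cd79b, Ms4a1 and Pax5 overlap between groups.

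The genes whose log2 values ran most nearly parallel to these 3 genes over the 12 arrays were found by Pearson's r, a description in which the group differences themselves carry much of the likeness. For Sema4a they were AB124611 (r = 0.974), D630039A03Rik (0.968), Arhgap26 (0.966), Dapl1 (0.965) and A530021J07Rik (0.964). For Plxnc1 they were A630001G21Rik (r = 0.969), Myb (0.967), Litaf (0.964), Clec2i (0.962) and AB124611 (0.958). For Nrn1 they were Lax1 (r = 0.985), Gpm6b (0.982), Litaf (0.977), Gstp3 (0.976) and A630001G21Rik (0.969). AB124611, Litaf and A630001G21Rik each stand in 2 of the 3 lists. The genes differ in the size of what they share: AB124611 was at a log2 difference of -1.12 with TCDD and -0.72 with Cl-BBQ, Dapl1 at -0.88 and -0.51, Gpm6b at -0.83 and -0.66, Myb, a transcription factor of early lymphocytes, at -0.31 and -0.21, and Lax1, an adaptor that dampens antigen receptor signals, at -0.42 and -0.26.

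The promoters of the genes were read from RefSeq (build GRCm38.p6), as the 250 bases before each annotated start, for 17 starts of 9 of the 10 genes. Nrn1 was not among them. They were searched on both strands for the letters GCGTG, the core of the element that AhR binds with its partner Arnt. On the opposite strand it reads as CACGC. It was found in 5 of the 17 windows, 1 each of Plxnc1, Plxnd1, Nrp1, Sema4c and Sema7a, and 28.2% of all promoters of this length hold it. The longer form TNGCGTG was in 0 of 17 windows and in 4.10% of all promoters. Sema4a, with the largest difference of the 10 genes, had the core in none of its 4 windows, and Plxnd1, whose groups overlapped, had it 4 times. A match is a description of the letters and not a binding site. The windows of Sema4a (chr3:88461183-88461432, the farthest upstream of the 4), Plxnc1 (chr10:94944846-94945095) and Plxnd1 (chr6:115995006-115995255), all on the minus strand, are shown to set these 3 cases side by side, 5′ to 3′ along the gene, with the core in capitals.
Sema4a: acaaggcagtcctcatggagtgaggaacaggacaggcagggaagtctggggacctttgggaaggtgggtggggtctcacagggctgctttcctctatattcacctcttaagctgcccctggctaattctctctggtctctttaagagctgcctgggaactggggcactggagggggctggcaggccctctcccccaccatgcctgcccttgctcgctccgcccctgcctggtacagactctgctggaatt
Plxnc1: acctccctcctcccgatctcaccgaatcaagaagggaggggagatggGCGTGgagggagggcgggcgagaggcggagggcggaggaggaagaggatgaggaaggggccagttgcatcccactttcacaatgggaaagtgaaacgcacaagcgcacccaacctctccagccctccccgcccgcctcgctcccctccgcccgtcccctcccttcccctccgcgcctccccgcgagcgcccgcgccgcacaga
Plxnd1: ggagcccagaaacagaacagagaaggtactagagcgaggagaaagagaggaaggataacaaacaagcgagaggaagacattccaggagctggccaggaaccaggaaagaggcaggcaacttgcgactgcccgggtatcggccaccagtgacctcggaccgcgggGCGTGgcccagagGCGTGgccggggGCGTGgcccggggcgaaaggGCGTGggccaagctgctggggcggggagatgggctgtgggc
In the Plxnc1 window the core lies 198 bases before the start, and in that of Plxnd1 its 4 copies lie 81, 68, 56 and 36 bases before it.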

How the data were processed

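RNA of 12 sorted samples, 3 groups of 4 mice that the labels call biological replicates, was hybridised to whole-transcript arrays. The labels' protocol names a one-cycle labelling kit, which is made for another kind of array. The authors normalised the arrays by RMA, per the submitters' processing notes, and the deposited values are log2 intensities (scale read from their range, 2.49 to 14.2). The software was not given in the sources used here, nor was the genome build.

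Of 35556 probe sets, 21789 had 1 gene symbol in the platform annotation, 1621 had several and 12146 were not named. The single-symbol probe set with the highest mean over the 12 arrays stood for its gene (19938 genes, of which 999 had several probe sets). All 10 members had a RefSeq symbol that matched. The members, gene lists and marker lists were chosen with earlier results of these data known.

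One linear model with an intensity trend was fitted to every gene over all 12 arrays, with a mean for each group and a spread shared by the 3 groups (limma 3.58.1 in R 4.3.3, 9 residual degrees of freedom). Tests were two-sided, with Benjamini-Hochberg adjustment over all genes and a threshold of 0.05. Intervals are 95% intervals of single differences, not adjusted for the number of genes. Precision is limited by there being 4 arrays a group. The fit was tested on simulated data. Named genes were the 10 members, every pathway gene past the threshold, the 4 with the highest mean of each list, the 5 most parallel genes for Sema4a, Plxnc1 and Nrn1, and Cyp1b1. Marker genes and the values of other list genes were added as stated beside them.

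Of 76 pathway names, Rhod had no single-symbol probe set and Folr4 is the older name of Izumo1r, which is listed and measured. Neutrophil and platelet, NK cell, erythroid, and endothelial and stromal marker lists held 11, 6, 3 and 12 measured genes. None of these passed in limma in any comparison, with at most 1 gene of a list at an unadjusted p under 0.05. Between TCDD and Cl-BBQ, deviations of same-numbered replicates from their group means had r = 0.606, 0.113, 0.157 and 0.365 over all genes. The numbers may pair these samples, although no label says that they share a litter, batch or day. Differently numbered replicates were not compared, so these values cannot decide it. Promoter sequences are those of RefSeq on GRCm38.p6. Each result was recomputed under 16 alternatives per comparison, 8 other settings and 8 in which 1 array was left out.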

Additional observations from a re-analysis of the deposited data

Results flagged for a closer look

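Sema4d in TCDD replicate 1 was at a log2 level of 10.90, away from the other 3 TCDD arrays, the nearest of which was at 11.16. The gap took up 0.855 of the group's range, above Dixon's 95% critical value for 4 samples. This was 1 of 30 groups of 4 arrays examined (10 genes in 3 groups), and chance alone flags about 5% of such groups. Without this array the probe set used for Sema4d passed the threshold with TCDD, which is a description, as for the other members. The second probe set of Sema4d differed by 0.04 with TCDD over all arrays and did not pass.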

How the results depend on the processing

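Over 16 alternatives per comparison, the 3 lower genes with TCDD kept their sign in each. With TCDD against vehicle 247 genes passed. The count was 160 with arrays centred on their medians, 391 with array weights, 397 with the replicate block, and 150 to 227 with 1 array left out. Of the 10 members 3 passed, and 1 to 3 with 1 array left out (1 without TCDD replicate 3). Sema4a kept its call in 16 of 16 alternatives, Plxnc1 in 15 and Nrn1 in 10. These 3 genes were chosen because they fell on these same arrays. Their signs and calls therefore describe how the settings differ and are no test of the genes. Of the pathway genes 4 passed, 7 in a fit of these 2 groups alone and 3 to 4 with 1 array left out.

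With Cl-BBQ against vehicle 39 genes passed. The count was 8 with centring, 96 with quantile normalization, 18 without the intensity trend, 11 with these 2 groups alone, 111 with the replicate block, and 3 to 61 with 1 array left out. Of the members 1 passed, 0 with centring, 0 with 2 groups alone, 4 with the replicate block and 0 to 1 with 1 array left out. Of the pathway genes 2 passed, 0 with 2 groups alone and 0 to 3 with 1 array left out. Same-numbered arrays of the treated and vehicle groups did not deviate together in every pair (r from -0.134 to 0.182). The highest of these was above the values of 0.113 and 0.157 between TCDD and Cl-BBQ. With 4 arrays a group they cannot decide whether the number pairs treated with vehicle arrays.

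With TCDD against Cl-BBQ 3 genes passed, 0 with quantile normalization, without the trend or with 2 groups alone, 9 with array weights, 5 with the replicate block and 0 to 7 with 1 array left out. No member and no pathway gene passed in any of the 16. Removing dim genes or testing every probe set changed no count by over 1.5 times. The causes were not tested.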

Other observations

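The 4 lower genes had mostly the same low arrays within groups, a grouping chosen after their values were seen and not particular to them. Vehicle replicate 3 was the lowest vehicle array for Sema4a, Plxnc1, Nrp1 and Nrn1, and Cl-BBQ replicate 1 was the lowest Cl-BBQ array for all 4. TCDD replicate 1 was the lowest TCDD array for 3 of them and replicate 3 for Sema4a. Sema4b and Sema4d, which were not lower, were also lowest on vehicle replicate 3 (8.29 and 10.76) and TCDD replicate 1 (8.25 and 10.90). In the Cl-BBQ group both were lowest on replicate 1 (8.27 and 10.88). Sema4c, Sema7a, Plxnd1 and Plxnb2 did not share all of these arrays. The mean level of the CD4 T cell markers was lowest on the same arrays (12.25, 12.24 and 12.19). The cause was not tested. For Cd22 the lowest arrays were vehicle replicate 3 (7.59), TCDD replicate 4 (6.96) and Cl-BBQ replicate 2 (7.31), so only the vehicle array was shared.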
